A study of Homo sapiens with 6 samples.

Results

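The genes described here are the MYC, MAX and MXD network, a set of 10 genes picked by symbol from the deposited gene table: MYC, MYCN, MYCL, MAX, MXD1, MXD3, MXD4, MXI1, MNT and MLX. All 10 were among the 17579 genes of that table, and all 10 passed the filter on low counts that left 13138 genes for testing. RNA-seq was made from LP-1, a human line derived from multiple myeloma that the labels class as B lymphoblast, in medium with 10% FBS. The control group (3 libraries) was infected with virus carrying a guide without a target, and the AURKA-guide group (3 libraries, genotype given as Aurora A-KO) with virus carrying a guide that targets AURKA, which encodes the mitotic kinase Aurora A. The labels do not give the number of guides, the time after infection or whether the cells were a clone or a pool, nor whether replicates came from separate cultures, so p-values reflect the spread among these libraries alone, and that spread may be technical.

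MYC, MYCN and MYCL are transcription factors that bind DNA as pairs with MAX and drive growth, ribosome production and metabolism. MXD1, MXD3, MXD4, MXI1 (also called MXD2) and MNT also pair with MAX at the same E-box sites, but bring SIN3 corepressors, while MLX is a MAX-like partner of the nutrient sensors MondoA (gene MLXIP) and ChREBP (gene MLXIPL). In myeloma MYC is often activated by rearrangements of its locus, and Aurora A protein is known in neuroblastoma to bind MYCN protein and shield it from the ubiquitin ligase FBXW7. That link acts on protein, which RNA-seq does not measure.

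The E-box CACGTG, which reads the same on both strands, is the core site of all these pairs. In the RefSeq promoters of build GRCh38.p14, each 250 bases before to 50 bases after a gene's start, 9 of the 10 members, all but MYC, had an entry, in 12 promoters. An E-box was in 3 of these 12 (25%) and in 7.26% of all 35116 promoters of that length. The stretches around the 3 sites are shown because they are where the network's own proteins could bind its genes, with the E-box in capitals, 5′ to 3′ on the gene's strand. They lie in MLX at chr17:42567020-42567085 (plus strand), 50 bases before the start, in MNT at chr17:2401218-2401283 (minus strand), 193 bases before the start, and in MXD4 at chr4:2262312-2262359 (minus strand), 238 bases before the start.
MLX: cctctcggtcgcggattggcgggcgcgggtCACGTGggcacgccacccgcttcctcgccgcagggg
MNT: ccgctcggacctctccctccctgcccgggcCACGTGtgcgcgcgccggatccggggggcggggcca
MXD4: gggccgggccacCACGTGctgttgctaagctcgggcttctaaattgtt
The E-box was also in 19 of 46 promoters (41.3%) of a hand-made list of MYC-activated targets and in 6 of 22 (27.3%) of a list of MYC-repressed targets. These were the highest shares among the lists used below. Targets of MondoA and MLX had 25%, genes of MYC protein turnover 15.6%, and corepressors and coactivators 10.5%. Regulators of MYC transcription had 8.7%, and the further network genes had 0 of 5 promoters. A match of letters is a description of sequence and shows no binding.

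Total expected counts lay between 17724174 and 18523594 per library, so a gene at 1 CPM (counts scaled to library size) has about 18 reads. AURKA was at 189.1, 192.2 and 194.8 CPM in control replicates 1 to 3 and at 112.8, 119.4 and 112.7 CPM in AURKA-guide replicates 1 to 3, a fall of the RNA to 0.599 of the control level (95% interval 0.557 to 0.643, edgeR adjusted p = 1.55e-06). Control replicates 2 and 3 were the least alike pair of 1 group, with a chi-square per gene of 11.1 against 2.3 to 5.52 in the other pairs of 1 group. Of all genes tested 267 (2.03%) passed an adjusted p of 0.05 in either direction, 126 (0.959%) higher and 141 (1.07%) lower, and without control replicate 3 the count was 2034 (15.3%). Of 10 plasma cell markers listed, 9 could be tested: SDC1, TNFRSF17 and XBP1 averaged 90.8, 128.5 and 1468 CPM, SLAMF7 was near 0 (0.737 CPM) and FCRL5, at 0.184 CPM, went untested. Of these, only CD38 passed, rising with the AURKA guide from 210.3 to 273.6 CPM (log2 difference 0.38, edgeR adjusted p = 4.16e-04). The fitted difference was below 0 for 7 of the 9 and above 0 for 2, with a median of -0.0996. Groups were apart for 3 markers lower and 1 higher, beside 10.2% lower and 10.5% higher over all tested genes. Whether these markers have a part in the results below was not tested. Markers of other cell types were near 0: their summed level per library was 0.857 to 1.3 CPM for T and NK cells, 5.14 to 6.11 CPM for myeloid, 4.78 to 5.94 CPM for stromal, 0.162 to 0.457 CPM for erythroid and 3.74 to 5.19 CPM for epithelial cells, with control and AURKA-guide ranges overlapping in each list.

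MYC was by far the most abundant network gene in LP-1. On the FPKM scale (the authors' values per transcript length and sequencing depth, on which genes can be compared) its level was 176.3, 181.1 and 163.6 in control replicates 1 to 3 and 172.2, 169.3 and 168.6 in AURKA-guide replicates 1 to 3. This mean level, 171.8 FPKM, exceeded that of 96.9% of tested genes. MYC made up between 95.6% and 96.03% of the summed FPKM of the 3 MYC family genes in every library.

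The MAX-like partner MLX came next, at 44.4 to 49.4 FPKM over the 6 libraries, followed by MAX itself at 28.5 to 31.9 FPKM. Among the repressors that pair with MAX, MXI1 (18.7 to 21.3 FPKM) and MXD4 (16.4 to 22.05 FPKM) were highest and did not differ from each other beyond their spread. MNT (6.63 to 8.43 FPKM), MYCN (6.27 to 7.26 FPKM) and MXD3 (5.41 to 8.22 FPKM) formed a group of neighbours whose ranges overlapped. MXD1 stood lower at 3.31 to 3.9 FPKM and MYCL lowest at 0.45 to 0.91 FPKM, and each of the other steps in this order lay outside the spread of the libraries.

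**Figure D1:**
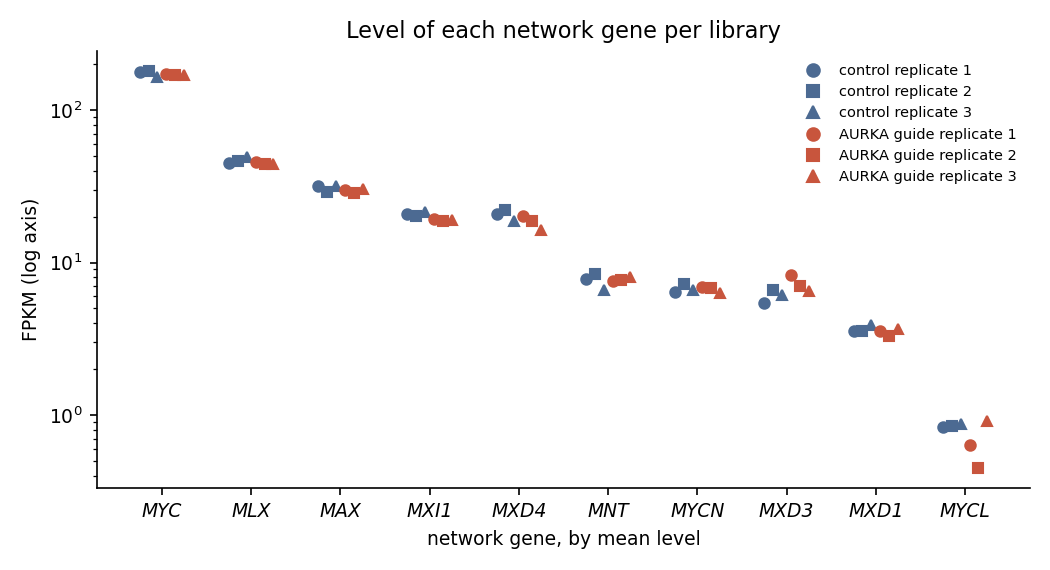
FPKM (log axis) of the 10 network genes in each of the 6 libraries, ordered by mean level, with control libraries in blue and AURKA-guide libraries in red. MYC sits near 172 FPKM, all other genes lie below 50 FPKM, and MYCL is below 1 FPKM in every library.

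The balance of activator and repressor RNA overlapped between the groups. The summed FPKM of MXD1, MXD3, MXD4, MXI1 and MNT was 31.9%, 32.1% and 33.2% of the summed MYC family in control replicates 1 to 3 and 32.7%, 31.4% and 30.4% in AURKA-guide replicates 1 to 3. The groups overlap, with means of 32.4% ± 0.713 in control and 31.5% ± 1.14 with the AURKA guide (SD, n = 3 each). MYC family RNA was 5.39 to 6.52 times the MAX level in control and 5.76 to 6.19 times in AURKA-guide libraries. These ratios are descriptions and were not tested.

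No network gene changed in AURKA-guide cells at an adjusted p of 0.05 (edgeR quasi-likelihood test, adjusted over all genes tested), in a comparison where 2.03% of all genes did. At an unadjusted p under 0.05 there were 2 of 10, MXI1 and MXD3, beside 16.1% of all tested genes. The DESeq2 Wald test and limma on FPKM values also called 0 of the 10. The fitted log2 difference was below 0 for 8 members and above 0 for 2, with a median of -0.078 beside -9.4e-05 over all genes tested. Outside MYCL and MXD3 every member's fitted difference lay between -0.15 and 0.04 on the log2 scale.

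MYC, the main activator, was at 804.9, 837.5 and 743.1 CPM in control replicates 1 to 3 and at 786.5, 774.3 and 764.6 CPM in AURKA-guide replicates 1 to 3. All 3 AURKA-guide values lie inside the control range, between the low control replicate 3 and the high control replicate 2. The log2 difference was -0.037 (SE 0.0485, adjusted p = 0.746), with a 95% interval of -0.14 to 0.067, so that a MYC RNA level between 0.907 and 1.05 of control is compatible with these libraries. Without control replicate 2 it was 0.0038 and without control replicate 3 it was -0.086, neither past the threshold.

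MYCN, the paralogue of embryonic and neural tissue, was detected at 15.9, 19.3 and 15.5 CPM in control replicates 1 to 3 and 17.8, 15.9 and 15.2 CPM in AURKA-guide replicates 1 to 3. The groups overlap, and the log2 difference of -0.052 (SE 0.0973, adjusted p = 0.829) lay within the spread between replicates. Its 95% interval, 0.835 to 1.11 of control, is wider than that of MYC. MYCL was at 2.65, 2.57 and 2.47 CPM in control and 1.81, 1.47 and 2.55 CPM in AURKA-guide replicates 1 to 3. AURKA-guide replicates 1 and 2 were low while replicate 3 was within the control range. With only 27 to 49 reads per library, its log2 difference of -0.40 (SE 0.211, adjusted p = 0.367) had a 95% interval from -0.85 to 0.05. It was -0.23 without AURKA-guide replicate 2 and -0.64 without AURKA-guide replicate 3.

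The shared partners MAX and MLX were close to the control level. MAX, without which the MYC and MXD proteins do not bind DNA, was at 57.9, 55.6 and 60.8 CPM in control and 54.2, 53.5 and 55.9 CPM in AURKA-guide replicates 1 to 3. Only AURKA-guide replicate 3 reached into the control range, and the log2 difference was -0.092 (SE 0.0582, adjusted p = 0.457). MLX was at 108.6, 113.6 and 118.3 CPM in control and 109.3, 107.4 and 106.5 CPM in AURKA-guide replicates 1 to 3. Its groups overlap at control replicate 1, and the log2 difference was -0.075 (SE 0.0516, adjusted p = 0.496). The 95% intervals, 0.86 to 1.02 of control for MAX and 0.879 to 1.02 for MLX, reach down to changes of -14% and -12%.

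Among the repressors MXI1 had the smallest p of the network. It was at 73.03, 71.01 and 73.5 CPM in control and 67.005, 64.8 and 64.99 CPM in AURKA-guide replicates 1 to 3. MXI1 was the 1 of 10 network genes whose groups did not overlap, with all AURKA-guide libraries below all control libraries. Groups did not overlap for 20.8% of all tested genes, 10.5% with the AURKA guide higher and 10.2% with it lower. The log2 difference was -0.15 (SE 0.053, 95% interval -0.26 to -0.032), which did not pass (edgeR adjusted p = 0.1996, unadjusted p = 0.0155). Corrected for the GC content of transcripts, it was -0.19 and passed (adjusted p = 0.0085), where 6.01% of all genes did. The MXI1 transcript used for that correction has a GC content of 43.7%, against a median of 48.5% over tested genes, and the part of GC content in the result was not tested.

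MXD3, a family member linked to proliferating cells, had a fitted difference of the other sign. It was at 8.38, 9.997 and 9.4 CPM in control and 12.7, 11.1 and 9.86 CPM in AURKA-guide replicates 1 to 3. AURKA-guide replicates 1 and 2 were above all controls while replicate 3 was below control replicate 2. The log2 difference was 0.28 (SE 0.111, edgeR adjusted p = 0.231), with a 95% interval from 1.03 to 1.43 times the control level, and 0.18 without AURKA-guide replicate 1.

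MXD4 was at 69.5, 74.6 and 63.9 CPM in control and 67.2, 64.4 and 58.2 CPM in AURKA-guide replicates 1 to 3. The groups overlap, with AURKA-guide replicate 3 the lowest of the 6. The log2 difference was -0.13 (SE 0.0701, adjusted p = 0.369). Without control replicate 3 it was -0.19 and passed (adjusted p = 0.0431), in a fit that called 15.3% of all genes, and after GC correction it was -0.025. It was -0.075 without control replicate 2 and also without AURKA-guide replicate 3. The MXD4 transcript has a GC content of 63.95%, the highest of the 10.

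MXD1, which rises in many cells as they differentiate, was at 20.2, 20.6 and 22.07 CPM in control and 20.07, 18.9 and 20.5 CPM in AURKA-guide replicates 1 to 3, and its groups overlap (log2 difference -0.080, SE 0.0743, adjusted p = 0.626). MNT, the broadly expressed repressor that limits MYC activity, was at 39.5, 43.07 and 34.2 CPM in control and 39.3, 39.6 and 41.1 CPM in AURKA-guide replicates 1 to 3. All 3 AURKA-guide values lie between control replicates 3 and 2, and the log2 difference was 0.041 (SE 0.0775, adjusted p = 0.829). Its sign depended on 1 library: it was -0.047 without control replicate 3 and 0.12 without control replicate 2. The 3 members with an E-box in the printed stretches, MLX, MNT and MXD4, had overlapping groups, as did every member but MXI1. Groups were apart for only 20.8% of all tested genes, and a link to the E-box was not tested.

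**Figure D2:**
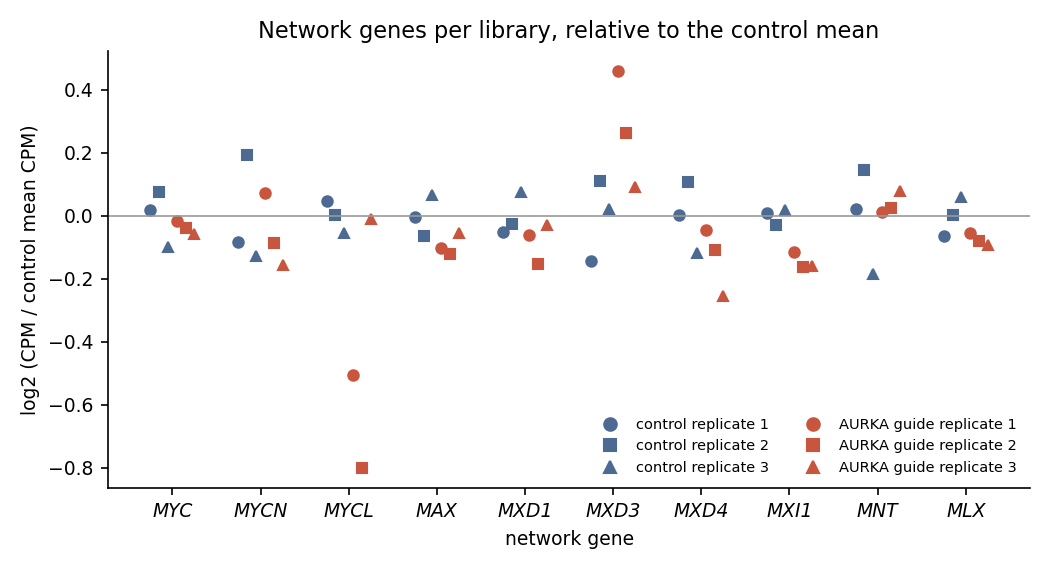
Level of each network gene in each library as log2 of its CPM over the control mean CPM, with control libraries in blue and AURKA-guide libraries in red. The groups overlap for 9 genes, and for MXI1 the 3 AURKA-guide libraries lie below the 3 control libraries.

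**Figure D3:**
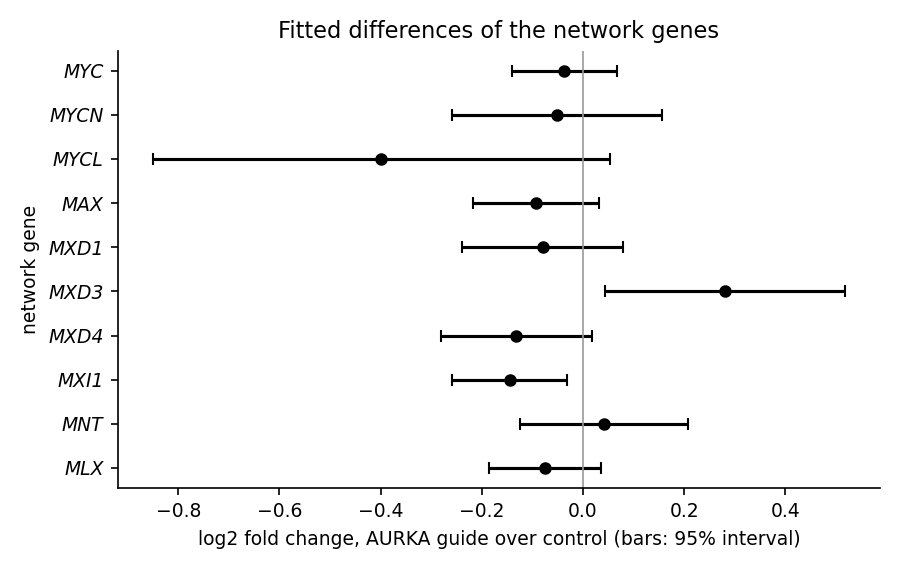
Fitted log2 fold change of AURKA guide over control for each network gene, as points with 95% intervals from the edgeR fit. The intervals of MXI1 and MXD3 leave out 0 before adjustment, and that of MYCL is the widest, from -0.85 to 0.05.

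The transcript table splits the reads of the 10 genes among 39 transcripts, of which 34 passed the filter on low counts. None passed an adjusted p of 0.05 (edgeR, adjusted over 43979 transcripts), in a table where 1 transcript in all (0.00227%) did, as higher. Of all tested transcripts 0 passed as lower, so no fall was called even for AURKA, the target of the guide. The absence of calls therefore says little about the transcripts of the members. At an unadjusted p under 0.05 there were 3 of the 34, beside 3.85% of all tested transcripts, and DESeq2 also called 0 of the 34. Of the 34, 6 had at least 1 library at 0. The 2 MYCN transcripts NM_005378.5 and NM_001293233.1 have identical values in every library and cannot be told apart.

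MYC has 2 listed transcripts, and their shares of the MYC expected counts were apart between the groups, though neither transcript passed the test on counts. NM_001354870.1 held 21.5%, 21.8% and 21.5% of MYC reads in control replicates 1 to 3 and 24.3%, 24.7% and 27.9% in AURKA-guide replicates 1 to 3. The groups do not overlap: the controls lie within 1 percentage point of each other, all AURKA-guide libraries are higher, and AURKA-guide replicate 3 is the highest. The mean share was 21.6% ± 0.179 in control and 25.6% ± 1.98 with the AURKA guide (SD, n = 3 each), with an exact two-sided permutation p = 0.1, the smallest that 3 against 3 can give. The transcript was singled out after its values were seen. Groups were apart in 5 of the 33 shares of network genes with at least 2 tested transcripts (15.2%), the 2 MYC shares being mirror images, and in 10.1% of such shares over all genes.

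The expected counts of NM_001354870.1 were 3197, 3198 and 2980 in control and 3491, 3509 and 3935 in AURKA-guide replicates 1 to 3, a log2 difference of 0.21 (SE 0.0686, edgeR adjusted p = 1). Its groups do not overlap, as for 6.08% of all tested transcripts in this direction. The more abundant NM_002467.5 had 11693, 11463 and 10856 in control and 10888, 10698 and 10171 in AURKA-guide replicates 1 to 3, a log2 difference of -0.11 (SE 0.0521, edgeR adjusted p = 1) with overlapping groups. In the authors' deposited table the log2 fold changes of the same transcripts are 0.21 (q = 0.197) and -0.12 (q = 0.638).

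**Figure D4:**
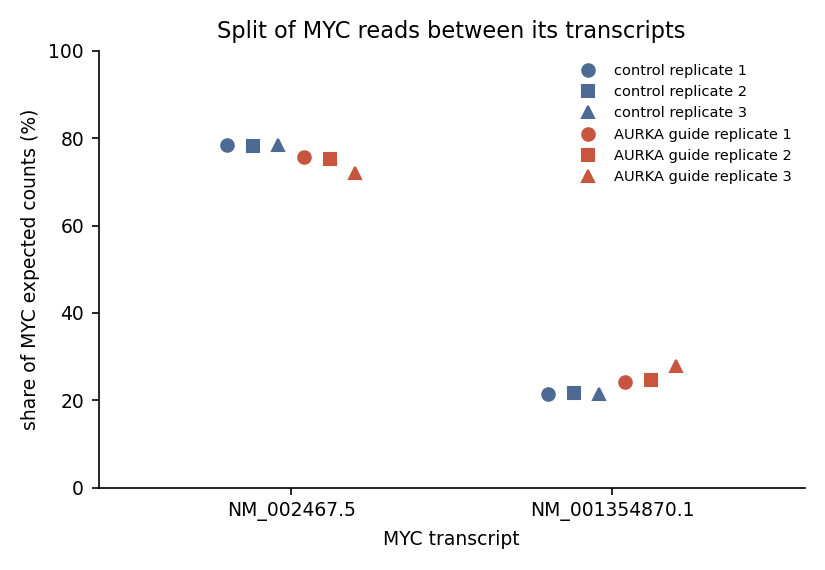
Share of MYC expected counts (%) assigned to each of its 2 listed transcripts, per library, with control libraries in blue and AURKA-guide libraries in red. The share of NM_001354870.1 is 21.5% to 21.8% in control and 24.3% to 27.9% in AURKA-guide libraries.

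In the other members 1 transcript usually held most of the reads. It was NM_130439.3 for MXI1, at 92.2% ± 3.58 in control and 88.7% ± 5.93 with the AURKA guide, NM_198204.1 for MLX at 87.1% ± 5.12 and 86.3% ± 1.74, and NM_031300.3 for MXD3 at 90.09% ± 4.41 and 85.7% ± 3.16 (SD, n = 3 each). The leading MXI1 transcript was lower in every AURKA-guide library, with a log2 difference of -0.20 (SE 0.0761, edgeR adjusted p = 1). The leading MXD4 transcript NM_006454.2, at 64.2% of MXD4 reads, was also lower in every AURKA-guide library (log2 difference -0.22, SE 0.0886, edgeR adjusted p = 1), while XR_427467.1, at 30.8%, was at 0.035 (SE 0.207). Of all tested transcripts 5.8% were lower in this way. In MAX, NM_002382.4 held 56.98% ± 7.07 and 52.2% ± 5.12, and NM_145112.2 32.06% ± 4.04 and 34.4% ± 8.43, with overlapping groups. In MNT, NM_020310.2 held 52.5% ± 4.34 of reads in control and 61.6% ± 4.1 with the AURKA guide, where groups were apart, and XM_024450759.1 17.5% ± 1.06 and 7.4% ± 6.45, with 1 AURKA-guide library at 0. XM_017024654.2, the other MNT transcript above 10%, held 26.8% ± 3.38 and 24.6% ± 2.

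The genes around the network were read from lists chosen by function. Of the further network genes, the giant MAX partner MGA was at 0.16 on the log2 scale (SE 0.0738, adjusted p = 0.288) and MLXIP at 0.058 (SE 0.0906, adjusted p = 0.79), and MLXIPL was too low to be tested, with 0 reads in each control and 1 to 2.93 reads in each AURKA-guide library. None of 18 corepressors and coactivators passed (median 0.021), beside 2.03% of all genes. EP400 of the TIP60 complex was at 0.15 (SE 0.0632, adjusted p = 0.26), and at 0.18 and past the threshold after GC correction (adjusted p = 0.0219). The acetyltransferase KAT2A was at -0.13 (SE 0.0575, adjusted p = 0.295), or -0.051 after GC correction, and the corepressor NCOR1 at 0.097 (SE 0.0474, adjusted p = 0.33).

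Of 20 genes that act on MYC protein stability, 1 fell, AURKA, the target of the guide, and none rose (median 0.0042), beside 1.07% lower and 0.959% higher over all genes. CIP2A, an inhibitor of the phosphatase that destabilises MYC, was at 52.2, 48.8 and 49.6 CPM in control and 56.8, 54.2 and 60.06 CPM in AURKA-guide replicates 1 to 3, a log2 difference of 0.18 (SE 0.0609) that did not pass (adjusted p = 0.154) and was 0.095 after GC correction (adjusted p = 0.347). SET, another inhibitor of that phosphatase, was at 0.13 (SE 0.046, adjusted p = 0.189). Groups did not overlap for either gene, and both were higher with the AURKA guide, as were 10.5% of all tested genes. The ubiquitin ligase gene FBXW7 was at 20.5 ± 0.342 CPM in control and 19.3 ± 1.54 CPM with the AURKA guide (SD, n = 3 each; log2 difference -0.082, SE 0.0777, edgeR adjusted p = 0.631).

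None of 17 regulators of MYC transcription passed (median 0.031), beside the same 2.03% of all genes. IRF4, a plasma cell factor that supports MYC expression in myeloma, was at 839.9, 811.4 and 868.5 CPM in control and 774.6, 762.3 and 786.1 CPM in AURKA-guide replicates 1 to 3. All AURKA-guide libraries were below all controls, and the log2 difference was -0.12 (SE 0.0432, adjusted p = 0.201). After GC correction IRF4 was at -0.14 and past the threshold (adjusted p = 0.005), where 6.01% of all genes passed. HNRNPK was at 0.11 (SE 0.0483, adjusted p = 0.284) and IKZF3, the Aiolos factor degraded by lenalidomide, at 0.10 (SE 0.0548, adjusted p = 0.378), with HNRNPK at 0.061 under the GC correction.

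None of 40 MYC-activated targets passed, where 2.03% of all genes did. Fitted differences were above 0 for 24 and below 0 for 16, between -0.18 and 0.20, with a median of 0.031 beside -9.4e-05 over all genes. Groups were apart for 5 targets higher and 5 lower, beside 10.5% higher and 10.2% lower over all tested genes. The transferrin receptor TFRC, which takes up iron, lay just short of the threshold. It was at 409.6, 400.2 and 446.02 CPM in control and 471.3, 478.1 and 496.8 CPM in AURKA-guide replicates 1 to 3, so that all AURKA-guide libraries were above all controls. Its log2 difference was 0.20 (SE 0.0501, edgeR adjusted p = 0.0518), and it passed in 6 of 16 alternatives, whose adjusted p ran from 0.00084 to 0.327. In the authors' deposited table TFRC is listed at 0.20 (q = 0.0124). CCND2, which encodes cyclin D2, was at 0.13 (SE 0.0439, adjusted p = 0.149), and the nucleolar protein gene NPM1 at 0.15 (SE 0.0549, adjusted p = 0.194). After GC correction CCND2 was at 0.11 and past the threshold (adjusted p = 0.0245), where 6.01% of all genes passed.

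Of 15 tested MYC-repressed targets 3 fell, 1 rose and 11 did not pass (median -0.043), in a comparison where 1.07% of all genes fell and 0.959% rose. The list was chosen with earlier results of these data known. Its counts are therefore a description, and their difference from the share over all genes was not tested. CDKN1A, the p21 cell cycle inhibitor and also a p53 target, fell from 18.8, 18.6 and 18.4 CPM in control to 10.99, 8.72 and 11.1 CPM in AURKA-guide replicates 1 to 3, a fold of 0.553 (adjusted p = 2.04e-04). CDKN1C, the p57 cell cycle inhibitor, fell from 21.9, 24.7 and 18.4 to 15.6, 13.6 and 14.2 CPM, a fold of 0.669 (log2 SE 0.103, adjusted p = 0.0074). Groups were apart for both, and the CDKN1C call was lost without AURKA-guide replicate 2 (adjusted p = 0.0751) or 3 (adjusted p = 0.0589).

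The Kruppel-like factor KLF2 fell by 0.30 in log2 units (SE 0.0685, adjusted p = 0.0378), from 90.9 ± 9.05 to 74.03 ± 3.04 CPM (SD, n = 3 each), and lost its call in 5 of the 6 fits without a library, all but that without control replicate 3 (adjusted p 0.0824 to 0.269), and in limma on FPKM. It fell by 0.18 after GC correction. ID2, an inhibitor of differentiation factors, rose from 92.6, 98.5 and 90.6 CPM in control to 124.2, 122.3 and 115.02 CPM in AURKA-guide replicates 1 to 3, a fold of 1.28 (log2 SE 0.0547, adjusted p = 0.0025). All AURKA-guide libraries were above all controls, and ID2 passed in each of 16 alternatives. ID2 is also described as a gene that MYC and MYCN activate, so its place in this list is uncertain, and CDKN1B, the p27 inhibitor of the same family as CDKN1A, was at -0.061 (SE 0.0538, adjusted p = 0.602).

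None of 8 tested targets of MondoA and MLX passed (median -0.031), against a background of 2.03% of all genes. TXNIP, the thioredoxin-binding protein that MondoA and MLX induce with glucose, was at 24.7, 22.8 and 25.4 CPM in control and 26.9, 29.8 and 31.2 CPM in AURKA-guide replicates 1 to 3. All AURKA-guide libraries were above all controls, and the log2 difference was 0.27 (SE 0.0757, edgeR adjusted p = 0.0973). After GC correction TXNIP was at 0.23 and passed (edgeR adjusted p = 0.0235), where 6.01% of all genes did. Its relative ARRDC3, which the GC correction moved to 0.13, was at 0.20 (SE 0.0949, adjusted p = 0.305), and the glycolytic regulator PFKFB3 at -0.12 (SE 0.0679, adjusted p = 0.389).

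**Figure D5:**
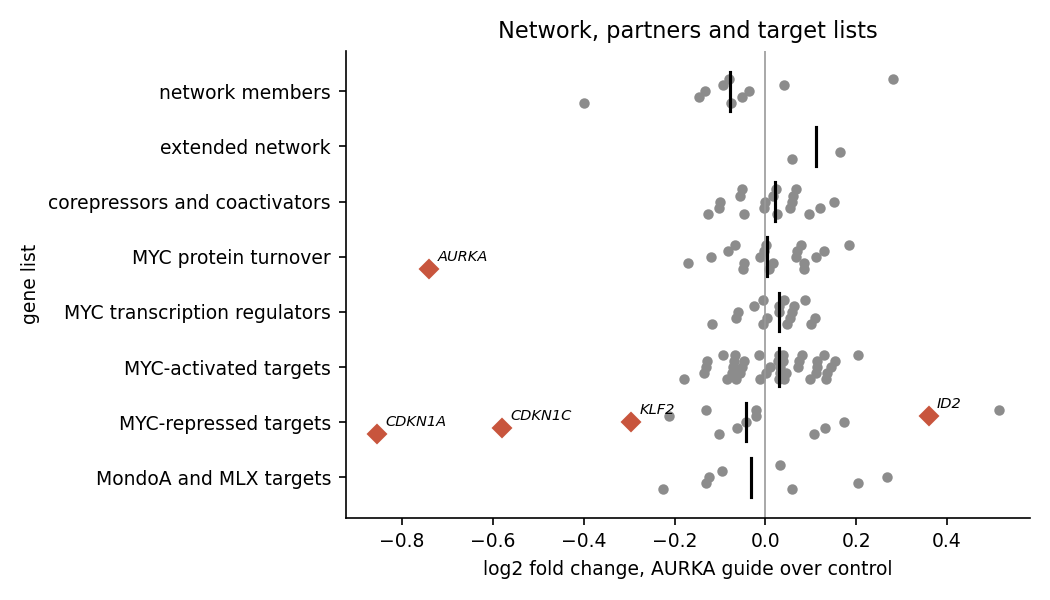
Log2 fold change of AURKA guide over control for every tested gene of the network and of 7 functional lists, with the median of each list as a black bar and genes past an adjusted p of 0.05 as red diamonds. The coloured genes are AURKA, CDKN1A, CDKN1C, KLF2 and ID2, and no network member is among them.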

How the data were processed

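RNA-seq libraries of the BGISEQ-500 protocol, per the labels, were analysed from the tables the authors deposited. BWA, Bowtie2, RSEM and build hg19 are named in the submitters' processing notes, without roles or versions. The authors deposited expected counts per gene and transcript, which need not be whole (44.8% of gene values were not), with FPKM and TPM values (TPM not used here), and comparison tables of log2 fold changes and q-values (adjusted p-values), with DESeq2 named per the file headers. The deposited gene comparison lists 229 genes, none a network member.

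The main test, on rounded expected counts, was that of edgeR 4.0.16 (R 4.3.3): filterByExpr, TMM scaling, quasi-likelihood F test, Benjamini-Hochberg adjustment over all genes at 0.05. Standard errors come from the F statistic, and 95% intervals from its t distribution, unadjusted. CPM uses TMM-scaled library sizes. On counts simulated from these libraries (13138 genes, 200 changed) it found 56% of 1.25-fold changes, 82% of 1.5-fold, 96% of 2-fold and 96% of 4-fold, and 9.34% of its calls were false. Genes were drawn independently there, so deviations that many genes share within a library were left out. These shares pool genes of all levels and may not hold for the real libraries. Transcripts were put through the same edgeR test. Alternatives were a replicate block, GC correction (an offset per library from a spline, with 5 degrees of freedom, on transcript GC from GENCODE 29), both together, each library left out, no filter or at least 10 CPM, DESeq2 size factors, library size alone, DESeq2 1.42.0, and limma 3.58.1 on log2(FPKM + 1) or log2(FPKM + 0.1).

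Members and lists were chosen with earlier results of these data known. All members are named; in each other list, the 3 genes of at least 5 CPM with the lowest p are named, with every gene past the threshold. FBXW7, CDKN1B, MLXIPL and 6 plasma cell markers were added outside that rule. For transcripts, the most abundant of each tested member, those past the threshold and those with at least 10% of its reads could be named. Promoters are RefSeq's. Reads carry no molecular identifiers, so counts are not numbers of molecules.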

Additional observations from a re-analysis of the deposited data

How the results depend on the processing

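Of 159 refits of single network genes under the alternatives, 153 kept direction and side of the threshold, 3 passed it (MXI1 with the GC correction, alone or with the block, and MXD4 without control replicate 3) and 3 changed sign. The changes of sign were MYC at 0.0038 and MYCN at 0.054 without control replicate 2, and MNT at -0.047 without control replicate 3, none past the threshold. Over the 6 fits that left out a library MYC ran from -0.086 to 0.0038, MYCN from -0.12 to 0.054, MNT from -0.047 to 0.12 and MLXIP from -0.040 to 0.14 (-0.0049 without AURKA-guide replicate 1). Values of the same sign that moved by over 1.5 times included MXD1 at -0.043, MLX at -0.047 and MAX at -0.061 without control replicate 3. Without control replicate 2 KAT2A was at -0.078, HNRNPK at 0.072, ARRDC3 at 0.11, MGA at 0.11 and IKZF3 at 0.058. MYCN was at -0.094 without control replicate 1, and EP400 at 0.097 without AURKA-guide replicate 1. MXD1 was at -0.045 without AURKA-guide replicate 2, and MGA at 0.11 and MNT at 0.021 without AURKA-guide replicate 3. The GC correction moved MYC to -0.010, MYCN to -0.0018 and MNT to 0.13, none past the threshold. It put MXD1 at -0.13 and MLXIP at 0.12, and limma on log2(FPKM + 1) put MYCL at -0.16, MAX at -0.057 and PFKFB3 at -0.031. Without control replicate 3 NPM1 (adjusted p = 0.0024), SET (0.0105), KAT2A (0.0151), CCND2 (0.0151), HNRNPK (0.0162) and ARRDC3 (0.0233) passed; with the block and the GC correction so did NPM1 (0.0291) and SET (0.0386). The count of changed network genes was 0, and 1 with the GC correction and 1 with the replicate block and the GC correction (MXI1 both times), and 0 to 1 over the 6 fits that left out a library. The count of changed genes in the 7 lists was 5, with 17 after GC correction, 19 with the block and the GC correction, and 3 to 29 over the fits that left out a library. Over all genes it was 267, with 789 after GC correction, 881 with the block and the GC correction, and 98 to 2034 over the fits that left out a library (98 without AURKA-guide replicate 3, 101 and 154 without AURKA-guide replicates 2 and 1, 111 without control replicate 1, 2034 without control replicate 3). No other alternative moved any of these counts by over 1.5 times, and member transcripts stayed at 0 in all of theirs. With the replicate block the count over all genes was 385, and 0 network genes were called. The labels link same-numbered libraries by number alone (correlation of their deviations 0.0514, -0.105 and 0.0951). Whether these libraries were handled together is not known, so the block is not read as a paired test. MYCL does not reach 10 CPM and has no value under that filter. MYCL had 27 to 49 reads per library.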
